A study of Mus musculus with 6 samples.

Results

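The 10 genes described here encode 6 matrix metalloproteases (Mmp2, Mmp9, Mmp12, Mmp13, Mmp14 and Mmp19) and 4 inhibitors of such enzymes (Timp1, Timp2, Timp3 and Reck). They were taken by symbol from a deposited table of 22027 protein-coding mouse genes, in which each had 1 row, and were followed in 3 libraries from mice at day 3 after hepatic ischemia and reperfusion (I/R) and in 3 libraries from sham-operated mice. I/R is an injury in which the blood supply of the liver is stopped and then let back in. All 6 libraries came from mice carrying a green fluorescent reporter of Il7, and their columns are named "GFP plus". The cells are labelled as lymphatic endothelial cells of the liver, and 20000 to 50000 of them per sample were sorted into TRIzol before RNA was extracted and ribosomal RNA depleted. The sources used here do not state the reporter's design, the strain, sex and age of the mice, the ischemia time, the time after the sham operation or the number of animals per sample, so p-values measure the spread between these samples, which may be partly technical.

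Matrix metalloproteases are zinc enzymes that cut collagens, elastin, laminins and many cell surface proteins. They are made as inactive precursors and are switched on by the removal of a propeptide, at the cell surface or by other proteases. The tissue inhibitors of metalloproteases (TIMPs) are small secreted proteins that block the active site, and Reck is a membrane-anchored inhibitor. In the liver these genes are known from several cell types, with Mmp12 and Mmp9 in macrophages and other myeloid cells, Mmp2 and Timp1 in stellate cells, and Mmp14 and Timp3 in stromal and endothelial cells.

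Library depth was 6297308, 17086746 and 13323676 recovered counts in I/R libraries 1, 2 and 3, and 6638130, 15650152 and 8616652 in sham libraries 1, 2 and 3. The deposited values are normalised counts, and a floor of 3 counts corresponds to values between 1.83 and 4.89. Transcripts of other liver cell types were abundant in all 6 libraries. Summed normalised counts of 7 lymphatic markers ranged from 27295 to 44116 in I/R and from 8396 to 30069 in sham libraries, while 6 resident Kupffer cell markers summed to 86002 to 146833 in I/R and 128333 to 147507 in sham libraries. Kupffer cells are the resident macrophages of the liver. Each of these 13 markers was detected. The 6 hepatocyte markers, also all detected, summed to 41326 to 58881 in I/R and 39823 to 67737 in sham libraries. In such bulk samples, fewer cells of a type and less RNA per cell cannot be told apart.

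None of the 10 genes passed the limma threshold of an adjusted p under 0.05, against a background of 0.0298% of the 13434 genes tested (4 higher and 0 lower). By edgeR and by DESeq2 the count of members called was also 0, where those tools called 0.00744% and 0.252% of genes. At an unadjusted p under 0.05 limma had 2 members, Mmp9 and Timp2, against 4.44% of all tested genes. These 2 were also the only members whose I/R and sham values did not overlap, against 9.59% of tested genes in either direction and 5.11% on the higher side, where both lay. All 10 members had a mean of at least 10 and so were tested, although Timp1, at a mean of 11.4, came close to that filter. Its mean was 17.4 in I/R and 5.43 in sham libraries, so it passed only through the I/R group. The sign of Timp1 in the counts and median that follow is therefore not independent of the filter. The log2 fold change (I/R minus sham) was above 0 for 10 of 10, as it was for 52.1% of all tested genes, with a median of 0.46 beside 0.02 over all tested genes. That count was 8 by DESeq2 and by edgeR, 7 without sham library 3, where the median was 0.19, and 7 without sham library 2.

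**Figure D1:**
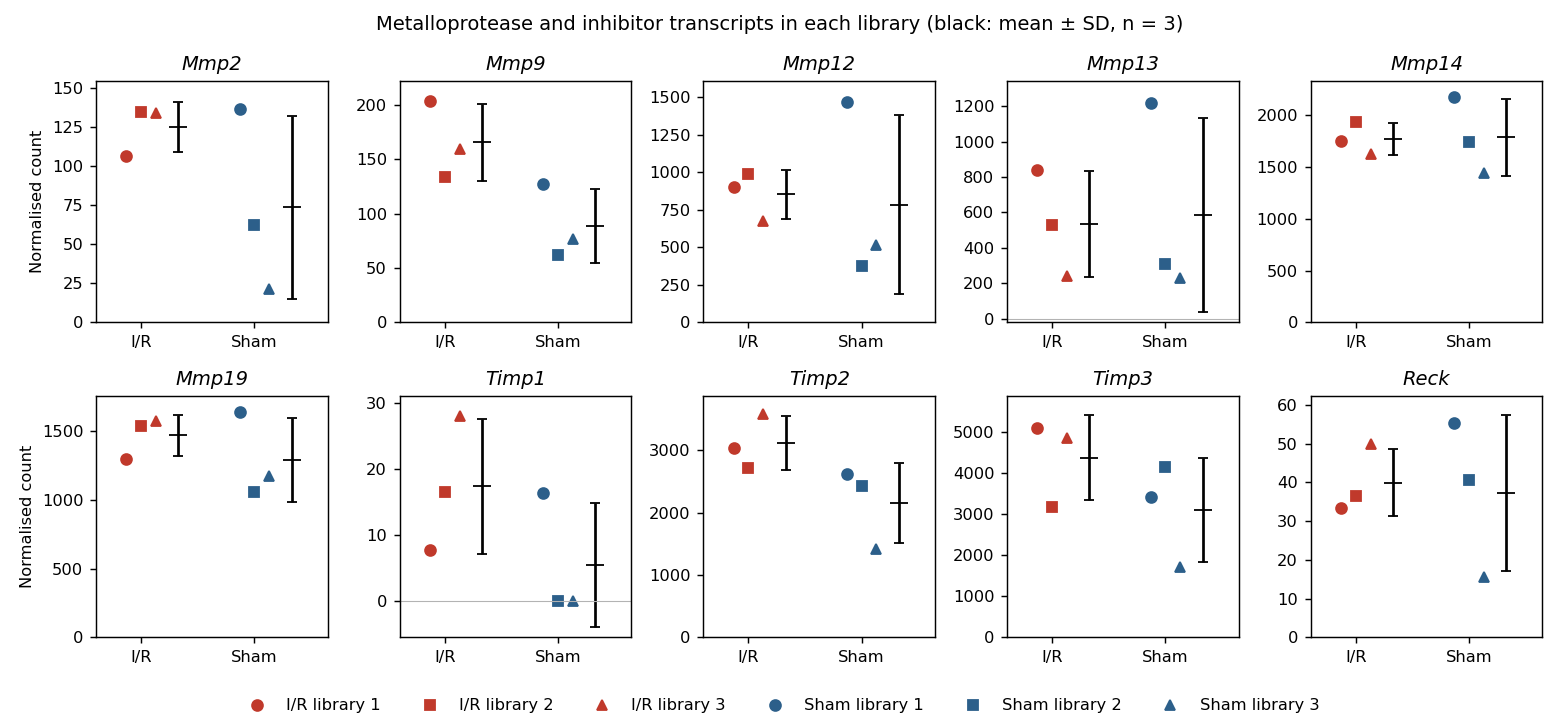
Normalised count (linear y axis) of each gene in the 3 I/R libraries (red, left) and the 3 sham libraries (blue, right), with the mean and SD in black. The groups are separate for Mmp9 and Timp2 and overlap for the other 8 genes, and sham library 1 or sham library 3 often holds the extreme value.

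Levels of different genes can be set side by side only per length of transcript, and for that the normalised count was divided by the kilobases of exon in GENCODE release 21. On this scale the inhibitors Timp2 and Timp3 stood at the top and Timp1 and Reck at the bottom. Timp2 averaged 800.3 ± 112 normalised counts per kb in I/R and 554 ± 165 in sham libraries (SD, n = 3 each), above Timp3 in 6 of 6 libraries. Timp3 averaged 536 ± 128 per kb in I/R and 379.95 ± 154 in sham libraries. Mmp19 averaged 416 ± 42.6 per kb in I/R and 366 ± 87.3 in sham libraries, and lay below Timp3 in 3 of 6 libraries. Mmp14 followed with 297 ± 26.3 per kb in I/R and 299.4 ± 62.5 in sham libraries, below Mmp19 in every library. Mmp13, Mmp12, Mmp9 and Mmp2 came next, with means of 201, 118, 46.8 and 37.1 per kb in I/R and 219.7, 108, 25 and 21.8 in sham libraries. Within this run, Mmp12 lay above Mmp9 in 6 of 6 libraries, Mmp13 above Mmp12 in 5 and Mmp9 above Mmp2 in 3. Timp1 averaged 19.5 per kb in I/R and 6.12 in sham libraries, above Reck in 4 of 6 libraries, and Reck 8.36 and 7.78. Scaled by the longest coding transcript in place of all exons, an alternative added after the data were seen, Timp3 led Timp2, Mmp14 led Mmp19 in 6 of 6 libraries and Mmp12 led Mmp13 in 3 of 6, so the order of these neighbours depends on the transcript length assumed.

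**Figure D2:**
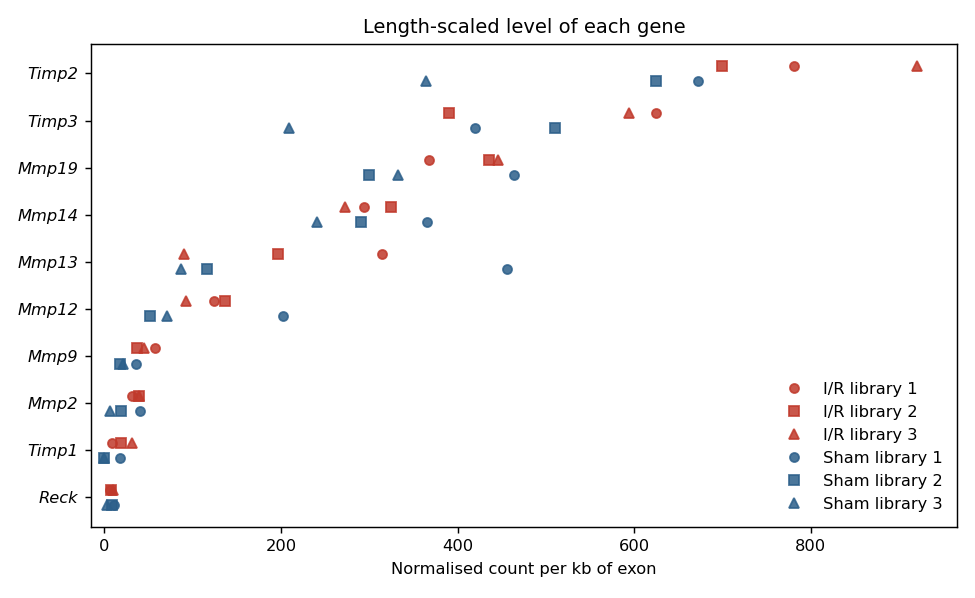
Normalised count per kb of exon (linear x axis) of each gene in the 3 I/R libraries (red, upper row of each gene) and the 3 sham libraries (blue, lower row), ordered by the mean over all 6 libraries. Timp2 has the highest values, up to 920.0 in I/R library 3, and Reck and Timp1 lie at the left edge.

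Mmp9 encodes gelatinase B, which cuts denatured collagen and basement membrane collagen and is best known from myeloid cells. Its normalised counts were 204, 133 and 159.6 in I/R libraries 1, 2 and 3, against 127, 61.9 and 76.5 in sham libraries 1, 2 and 3. Every I/R library lay above every sham library, with I/R library 2 only just above sham library 1. I/R minus sham gave a log2 fold change of 0.94 (SE 0.36, 95% interval from 0.14 up to 1.74, and adjusted p = 0.985 in limma), with unadjusted p of 0.025 in limma, 0.0285 in edgeR and 0.0343 in DESeq2. With any 1 library left out it stayed between 0.72 and 1.23. Recovered counts of Mmp9 were 134, 219 and 205 in the I/R and 78, 93 and 64 in the sham libraries.

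Markers of monocytes and neutrophils were read beside Mmp9, since both cell types can carry it. The 6 recruited monocyte markers, all detected, summed to 4230 to 4675 in I/R and 2131 to 2720 in sham libraries, with no overlap. F13a1, 1 of these 6, was called higher in I/R (log2 fold change 2.18, limma adjusted p = 0.0416), and DESeq2 also called Ccr2 and Chil3. The other 3 markers overlapped between the groups, with log2 fold changes of 0.70 for Ly6c2, 0.51 for Itgam and -0.12 for Plac8. Without F13a1, the remaining 5 summed to 2399 to 2909 in I/R and 1568 to 2455 in sham libraries, with overlap. Of 7 neutrophil markers, Ly6g, Retnlg and Elane had 0 counts in all 6 libraries, and the summed level of the 7 was 945 to 1307 in I/R and 1214 to 1273 in sham libraries. Most of that sum was Csf3r, with a mean of 1137, a receptor gene that monocytes and macrophages also express. The part of either cell type in the Mmp9 values was not tested. Among 10836 other genes with a mean of at least 50, those with the most similar profile over the 6 libraries were Serpinb8, Tm4sf1 and Gimap6, with root mean square differences from Mmp9 of 0.134, 0.145 and 0.146 on the centred log2 scale.

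Mmp2 encodes gelatinase A, whose precursor is activated at the cell surface by the Mmp14 protein with Timp2 as a bridge. Mmp2 had normalised counts of 107, 135 and 134 in I/R libraries 1, 2 and 3, against 137, 62.5 and 21.5 in sham libraries 1, 2 and 3. Sham library 1 was the highest of all 6 and sham library 3 the lowest by far, so the groups overlapped. The log2 fold change was 1.11 (SE 0.58, 95% interval from -0.17 up to 2.38, and adjusted p = 0.985 in limma), 1.73 without sham library 1 and 0.42 without sham library 3. On recovered counts Mmp2 had smaller values, 0.79 in edgeR and 0.78 in DESeq2.

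Mmp14, the gene for the membrane-type collagenase MT1-MMP, had a mean at rank 1187 among all genes in the table and was the steadiest of the 10. Its normalised counts were 1753, 1934 and 1622 in I/R libraries 1, 2 and 3, against 2179, 1735 and 1439 in sham libraries 1, 2 and 3. The sham values bracketed the I/R values. Means were 1769 ± 157 in I/R and 1784 ± 372 in sham libraries (SD, n = 3 each), and the log2 fold change was 0.0049 (SE 0.19, 95% interval from -0.42 up to 0.43, and adjusted p = 1 in limma). In linear terms that interval runs from 0.748 to 1.35 times the sham level, and a difference within it was not detectable with these libraries. The sign was negative by DESeq2 and edgeR.

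Mmp19, which encodes a secreted protease with basement membrane substrates, was nearly as even. It had 1298, 1538 and 1575 in I/R libraries 1, 2 and 3, against 1641, 1058 and 1176 in sham libraries 1, 2 and 3. Sham library 1 was again the highest, and the other 2 sham libraries were below all I/R libraries. On the log2 scale the I/R minus sham difference was 0.21 (SE 0.20, 95% interval from -0.24 up to 0.65, and adjusted p = 0.985 in limma). Exons of Mmp19 overlap those of Tmem198b on the opposite strand over 789 bases, and Tmem198b had normalised counts of 174 to 213 in I/R and 78.9 to 257 in sham libraries. No source states whether strand was used in counting, so reads from the shared stretch cannot be assigned to either gene.

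Mmp12, the macrophage elastase, and Mmp13, a collagenase, are neighbours in a cluster of metalloprotease genes on chromosome 9. In GRCm38, Mmp12 spans chr9:7344381-7369499 and Mmp13 chr9:7272514-7283331, both on the plus strand. Promoters of both are shown because their levels were the most uneven of the abundant members and had the same 3 libraries on top. In the RefSeq promoter windows (GRCm38.p6, plus strand, 250 bases before to 50 after an annotated start), capitals mark an AP-1 motif (TGAGTCA or TGACTCA, which are the same site read on either strand) and the letters TATAAA.
Mmp13 promoter, chr9:7272264-7272563: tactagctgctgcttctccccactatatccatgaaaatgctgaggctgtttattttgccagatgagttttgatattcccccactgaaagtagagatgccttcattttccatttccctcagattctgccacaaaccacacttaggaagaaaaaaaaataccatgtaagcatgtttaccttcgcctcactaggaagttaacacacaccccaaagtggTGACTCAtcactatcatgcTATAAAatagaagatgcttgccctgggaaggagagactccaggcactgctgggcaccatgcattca
Mmp12 promoter at the downstream start, chr9:7347124-7347423: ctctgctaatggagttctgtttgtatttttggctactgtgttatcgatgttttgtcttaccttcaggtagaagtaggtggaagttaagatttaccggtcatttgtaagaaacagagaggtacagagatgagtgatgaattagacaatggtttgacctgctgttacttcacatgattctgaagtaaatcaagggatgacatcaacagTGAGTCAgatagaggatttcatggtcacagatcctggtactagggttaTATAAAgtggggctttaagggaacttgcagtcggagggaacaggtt

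The AP-1 motif began 35 bases before the start of Mmp13 and 44 bases before this start of Mmp12. The letters TATAAA lay 16 bases before the start of Mmp13 but 5 bases after this start of Mmp12. The AP-1 motif occurred in 5.20% of all 32851 promoter windows, and TATAAA on the gene's strand in 8.32%. RefSeq windows were found for 7 members. The windows of Mmp14, Timp1, Timp2, Timp3 and Reck, and that of a second, upstream Mmp12 start, did not hold these AP-1 letters. AP-1 is a dimer of Fos and Jun family proteins, and it is known to act on metalloprotease promoters. A match of letters is a description and does not show binding.

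Mmp13 had normalised counts of 841, 527 and 242 in I/R libraries 1, 2 and 3, against 1219, 310.0 and 233 in sham libraries 1, 2 and 3. Both groups spanned a wide range, and the groups overlapped through most of it. I/R minus sham gave a log2 fold change of 0.09 (SE 0.59, 95% interval from -1.21 up to 1.39, and adjusted p = 0.997 in limma). Its sign was negative by DESeq2 and edgeR, at -0.13 each, and without I/R library 1, sham library 2 or sham library 3. Mmp12 had 901, 988 and 673 in I/R libraries 1, 2 and 3, against 1468, 372 and 514 in sham libraries 1, 2 and 3. The I/R values lay between sham library 1 above and the other 2 sham libraries below. The log2 fold change was 0.36 (SE 0.42, 95% interval from -0.56 up to 1.29, and adjusted p = 0.985 in limma), 0.94 without sham library 1 (adjusted p = 0.277) and -0.043 without sham library 2. By edgeR and by DESeq2 Mmp12 had 0.13 each. For both genes, sham library 1 and I/R libraries 1 and 2 were the 3 highest.

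Of the genes of AP-1 subunits, Fos, Fosl1, Fosl2, Jun, Junb and Jund were compared with that order, and Fosb was not. Jun had normalised counts of 17281, 13176 and 18139 in I/R libraries 1, 2 and 3, against 11620, 21379 and 17394 in sham libraries 1, 2 and 3, and Fos, Junb and Jund were likewise lowest in sham library 1. Fosl2 was lowest in I/R library 1 and highest in sham library 2. Fosl1 was the 1 of these 6 subunit genes that had the same 3 libraries on top, with 693 in sham library 1, beside 335 to 513 in the I/R libraries and 212 and 216 in sham libraries 2 and 3. The summed pan-macrophage markers (6 of 6 detected) were 66419 in I/R library 1 and 96265 and 104895 in I/R libraries 2 and 3, and 96591 to 104895 in the sham libraries. The part of AP-1 subunit genes or of macrophages in the Mmp12 and Mmp13 values was not tested.

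Timp2, an inhibitor that also takes part in Mmp2 activation, was the second member whose groups were apart. Its normalised counts were 3045, 2724 and 3584 in I/R libraries 1, 2 and 3, against 2617, 2435 and 1421 in sham libraries 1, 2 and 3. I/R library 2 stood only slightly above sham library 1, and sham library 3 was well below the other 5. On the log2 scale the I/R minus sham difference was 0.57 (SE 0.24, 95% interval from 0.04 up to 1.10, and adjusted p = 0.985 in limma), with unadjusted p of 0.0367 in limma, 0.0517 in edgeR and 0.0318 in DESeq2. Without sham library 3 it was 0.30 (unadjusted p = 0.18 in limma).

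Timp3, a matrix-bound inhibitor that also blocks ADAM and ADAMTS proteases, had the highest normalised counts of the 10, with a mean at rank 467. It had 5085, 3177 and 4843 in I/R libraries 1, 2 and 3, against 3422, 4153 and 1708 in sham libraries 1, 2 and 3. I/R library 2 was below sham libraries 1 and 2, and sham library 3 was again the lowest. I/R minus sham gave a log2 fold change of 0.56 (SE 0.31, 95% interval from -0.13 up to 1.26, and adjusted p = 0.985 in limma) and 0.18 without sham library 3. Exons of Timp3 overlap those of Syn3 on the opposite strand over 1733 bases, but Syn3 had only 5.45 to 51.8 in I/R and 0 to 64.5 in sham libraries.

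Reck and Timp1 were the members with the lowest counts. Reck had 33.5, 36.5 and 49.8 in I/R libraries 1, 2 and 3, against 55.4, 40.6 and 15.5 in sham libraries 1, 2 and 3. The groups overlapped, with both extremes in the sham group, and the log2 fold change was 0.25 (SE 0.61, 95% interval from -1.09 up to 1.60, and adjusted p = 0.995 in limma), negative without sham library 3 (-0.26) and with quantile normalisation (-0.034). Timp1, an inhibitor known from liver fibrosis, rested on 5, 27 and 36 recovered counts in I/R libraries 1, 2 and 3, and on 10, 0 and 0 in sham libraries 1, 2 and 3. Its normalised counts were 7.61, 16.4 and 28.0 in I/R libraries, against 16.3, 0 and 0 in sham libraries. A count of 0 allows up to 2.00 in sham library 2 and 3.58 in sham library 3. Both limits lay under the value of every I/R library, but the counting error of the I/R values was not considered. Sham library 1 lay above I/R library 1. The Timp1 estimate of 2.66 on the log2 scale (SE 1.66, 95% interval from -1.01 up to 6.32, and adjusted p = 0.985 in limma) was the least precise of the 10, and DESeq2 gave 1.74.

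**Figure D3:**
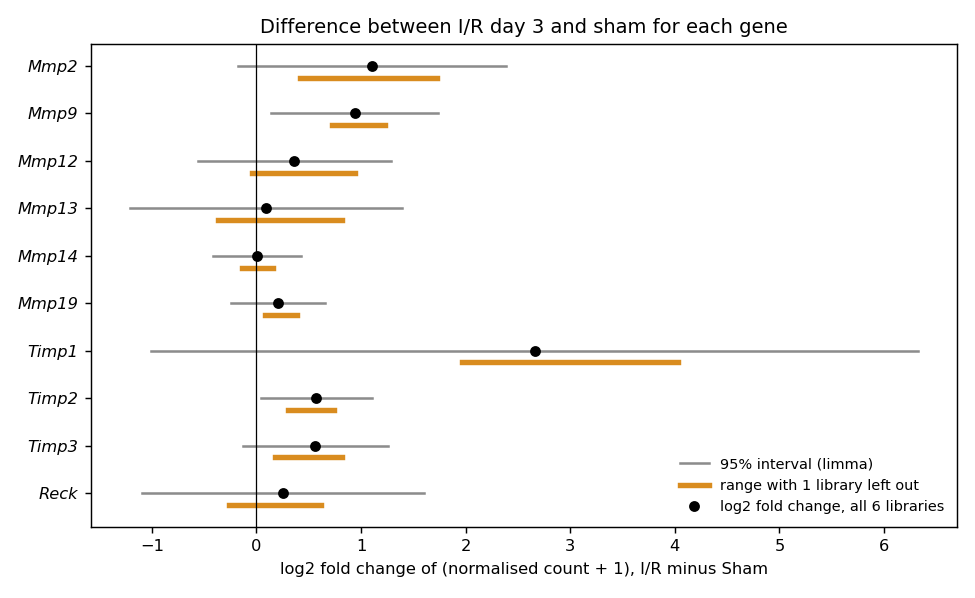
Log2 fold change (I/R minus sham, x axis) of each gene with its 95% interval in grey and, in orange, the range over 6 fits that each leave out 1 library. The intervals of Mmp9 and Timp2 stay above 0, that of Mmp14 is the narrowest at -0.42 to 0.43, and that of Timp1 the widest at -1.01 to 6.32.

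Enzymes and inhibitors were also summed per library on the per kb scale, as a description with no test. The 6 metalloproteases summed to 1190, 1171 and 986 normalised counts per kb in I/R libraries 1, 2 and 3 and to 1565, 794 and 760.4 in sham libraries 1, 2 and 3. Timp1, Timp2 and Timp3 summed to 1414, 1108 and 1546 in I/R and to 1110.3, 1135 and 574 in sham libraries. The ratio of metalloproteases to TIMPs was thus 0.841, 1.06 and 0.638 in I/R libraries and 1.41, 0.7 and 1.32 in sham libraries, so the groups overlapped, with means of 0.845 ± 0.210 and 1.14 ± 0.388 (SD, n = 3 each). The ratio of Mmp14 to Timp2, chosen after the values were seen because their proteins form 1 activation complex, was 0.376, 0.464 and 0.296 in I/R libraries and 0.544, 0.466 and 0.662 in sham libraries, with I/R library 2 and sham library 2 almost level. Its level depends on the length assumed. With the longest coding transcript it was 0.659, 0.813 and 0.518 in I/R libraries and 0.954, 0.816 and 1.16 in sham libraries.

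The extreme values of the 10 genes fell mostly in the sham group. Sham library 3 held the lowest value of 6 members (Mmp2, Mmp13, Mmp14, Timp2, Timp3 and Reck), where it held the lowest value of 20.1% of all tested genes, and sham library 2 that of the other 4, counting the tie of Timp1 at 0 to it. Sham library 1 held the highest value of 6 members (Mmp2, Mmp12, Mmp13, Mmp14, Mmp19 and Reck), and of 20.3% of all tested genes. No I/R library was lowest for any member. Over all tested genes, I/R libraries 1, 2 and 3 were lowest for 17.1%, 13.2% and 14.1%, and sham library 2 for 15.4%. The standard deviation relative to the mean was smaller in I/R than in sham libraries for 10 of 10 members and for 59.3% of tested genes. For Mmp2 it was 12.8% in I/R and 79.4% in sham libraries, and for Mmp12 19.0% and 75.9%.

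Marker sums of some structural cells differed between the same sham libraries. The 7 lymphatic endothelial markers, each detected, summed to 44116, 27295 and 43051 in I/R libraries 1, 2 and 3, against 23415, 30069 and 8396 in sham libraries 1, 2 and 3. The 8 stellate cell and fibroblast markers, also each detected, include Reln, which the lymphatic list holds too and which alone had 5459, 3050 and 4799 in I/R libraries and 3024, 4046 and 756 in sham libraries. Without Reln, the other 7 summed to 2310, 2944 and 3199 in I/R libraries 1, 2 and 3, against 6505, 927 and 1090 in sham libraries 1, 2 and 3. Most of this sum in sham library 1 was Col3a1 (3207) and Col1a1 (1973). These 2, Des, Dcn and Pdgfrb were each highest in sham library 1. Lrat went otherwise, with 121, 47.2 and 129 in sham libraries 1, 2 and 3 and 65.4 to 103 in I/R libraries. Acta2 was highest in I/R library 3. Sham library 3 was thus lowest for the lymphatic sum, and was the lowest library for Mmp2, Mmp13, Mmp14, Timp2, Timp3 and Reck. Sham library 1 was highest for the stellate sum without Reln, and was the highest library for Mmp2, Mmp12, Mmp13, Mmp14, Mmp19 and Reck. Sham libraries 2 and 3 were both low for that sum. The liver sinusoidal endothelial markers differed less, with sums of 7256, 6685 and 7526 in sham libraries 1, 2 and 3, the highest in sham library 3. Pan-endothelial markers summed to 18701, 21136 and 14423 in the same libraries, the lowest in sham library 3.

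The 6 markers of lipid-associated macrophages, a state seen after tissue damage, all had a positive fold change. For Lgals3 (0.02) and Spp1 (0.08) it was close to the median of 0.02 over all tested genes. The groups were apart for 4 of the 6 (Gpnmb, Trem2, Cd9 and Fabp5), against 5.11% of all tested genes on the higher side. Gpnmb was called higher in I/R (log2 fold change 3.12, limma adjusted p = 0.0416). The 6 summed to 22115, 22634 and 12805 in I/R and 15178, 13215 and 16012 in sham libraries, with Spp1 as the largest term, a gene that overlapped between the groups. Without Spp1, the other 5 summed to 6193, 10545 and 7320 in I/R and to 5858, 4729 and 4767 in sham libraries, with no overlap. The part of these structural cells and macrophages in the values of the 10 genes was not tested. Leaving out F13a1, Reln or Spp1 from a sum was chosen after the data were seen.

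**Figure D4:**
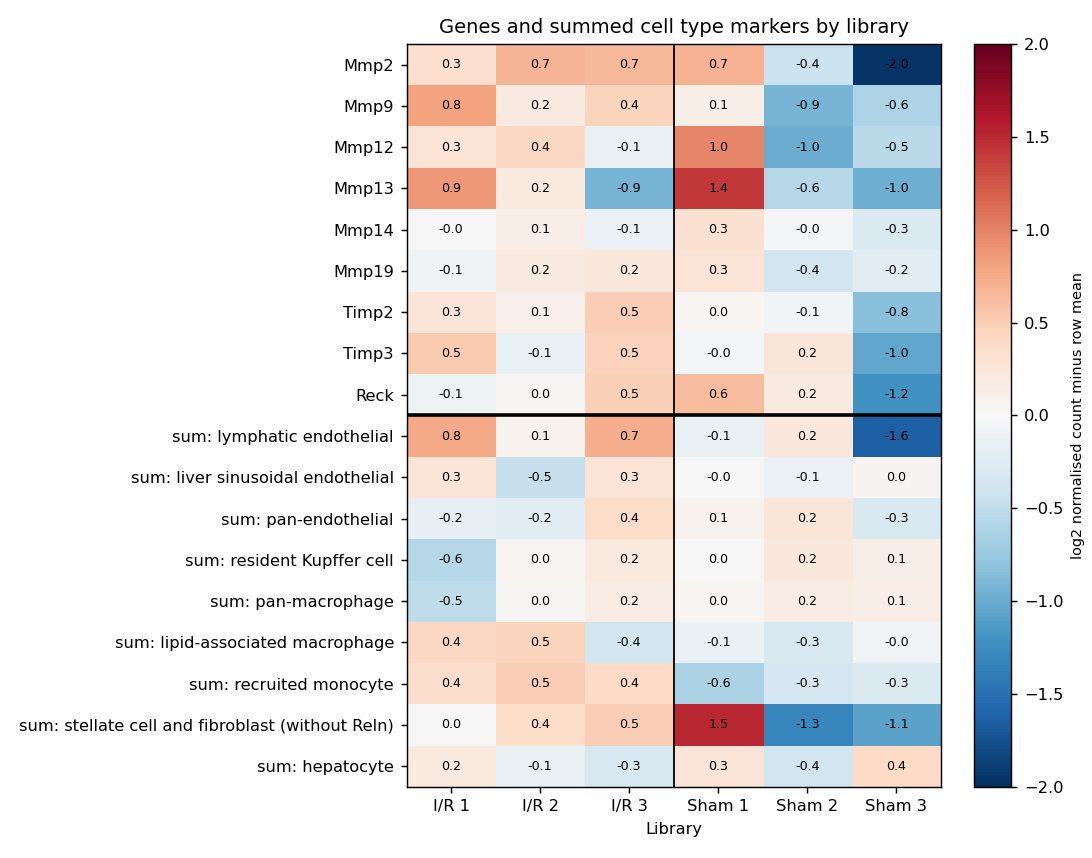
Log2 normalised count of 9 genes (upper block) and log2 summed markers of 9 cell types (lower block, the stellate sum without Reln) in each library (columns), as the difference from the mean of the row. Timp1 is left out because it was at 0 in 2 libraries. Sham library 3 (right column) is low for Mmp2, Reck, Timp3 and Timp2 and for the lymphatic sum, and the stellate sum is high in sham library 1 and low in sham libraries 2 and 3.

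Around the 10 genes, 6 lists of related genes were followed, with 85 genes in all, 84 of them in the table and 68 tested. By limma 0 of the 68 passed the threshold (smallest adjusted p = 0.115), against 0.0298% of all tested genes. An unadjusted limma p under 0.05 was found for 8 of the 68, against 4.44% of all tested genes. edgeR called 0 and DESeq2 called 2, Thbs1 and Fn1, where these tools called 0.00744% and 0.252% of all genes. Fold changes were positive for 45 (41 by DESeq2) and negative for 23, with a median of 0.40 beside 0.02 over all tested genes. The groups did not overlap for 9 of the 68, all higher in I/R, against 5.11% of all tested genes on that side.

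Among other metalloproteases 6 of 17 were tested, 5 with a positive and 1 with a negative fold change. Mmp27 had 164, 199.7 and 195 in I/R libraries and 111, 95.1 and 109.9 in sham libraries, without overlap (log2 fold change 0.81, SE 0.28, limma adjusted p = 0.985). Mmp17, encoding a metalloprotease with a lipid anchor, had 1.19 (SE 0.61) without overlap between the groups, and Mmp15, a membrane-type enzyme, -0.79 (SE 0.45), where I/R library 3 stood at 71.6 and the other 5 libraries between 201 and 317. Mmp10 had 0 counts in all 6 libraries. Mmp3, a stromelysin gene, and Mmp8, the neutrophil collagenase gene, were below the filter at means of 3.88 and 9.55.

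Among other inhibitors and clearance genes, 6 of 8 tested had a positive fold change. Thbs1, encoding the matrix glycoprotein thrombospondin 1, which binds the Mmp2 and Mmp9 proteins, had 8805, 6696 and 7195 in I/R libraries and 3562, 2715 and 1844 in sham libraries (log2 fold change 1.52, SE 0.24, limma adjusted p = 0.115, DESeq2 adjusted p = 3.6e-06). Serpine2, encoding the serine protease inhibitor protease nexin 1, had 1.11 (SE 0.60, limma adjusted p = 0.985). Lrp1, the receptor that clears metalloproteases and TIMPs from the surface, was abundant at a mean of 18976 and had -0.18 (SE 0.22).

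Activators and docking partners were mostly level, with 8 of 13 positive and a median of 0.16. Furin, the convertase that activates the Mmp14 protein, had 3086, 3872 and 3515 in I/R libraries and 2946, 2655 and 2096 in sham libraries (log2 fold change 0.45, SE 0.18, limma adjusted p = 0.985). Plat, the tissue plasminogen activator gene, and Itgav, the integrin alpha V gene, had 0.87 (SE 0.40) and 0.48 (SE 0.24) with overlapping groups. Of the ADAM and ADAMTS enzymes that Timp3 inhibits, 5 of 7 were positive. Adam10, a sheddase, had 2754, 2759 and 2798 in I/R libraries and 1903, 2281 and 1397 in sham libraries (log2 fold change 0.60, SE 0.20, limma adjusted p = 0.985), while Adam12 had 1.76 (SE 0.83) and Adamts1 0.46 (SE 0.27). Adam17, the gene of the enzyme that releases TNF, had -0.03 (SE 0.16).

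Matrix substrates had 18 of 20 positive fold changes in limma, with a median of 0.61, but 13 of 20 in DESeq2. The linear mean was lower in I/R than in sham libraries for 7 of the 20, and 5 of these (Col1a1, Col1a2, Col3a1, Col5a1 and Col5a2) had a positive fold change in limma. Fn1, the fibronectin gene, had 6602, 4506 and 7207 in I/R libraries and 3168, 3492 and 2832 in sham libraries (log2 fold change 0.92, SE 0.21, limma adjusted p = 0.508, DESeq2 adjusted p = 0.00688). Eln, encoding elastin, the substrate that gives macrophage elastase its name, had 1.01 (SE 0.30), and Col18a1, the source of endostatin, 0.61 (SE 0.22), both with groups apart and a limma adjusted p of 0.985. Transcription factors that act on metalloprotease promoters were negative in 11 of 14, with a median of -0.13. Ets2, Rela and Hif1a had -0.31 (SE 0.19), -0.30 (SE 0.19) and 0.25 (SE 0.18), and overlapped between the groups.

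**Figure D5:**
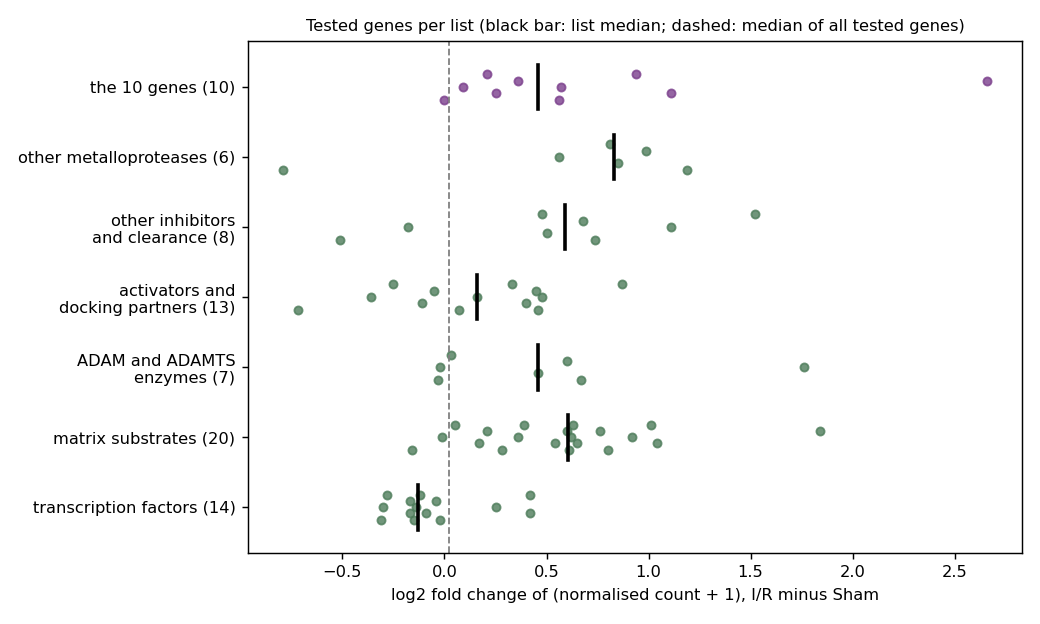
Log2 fold change (I/R minus sham, x axis) of each tested gene in the list of 10 and in 6 related lists, 1 point per gene, with the number tested in brackets. The list medians (black bars) run from -0.13 for transcription factors to 0.83 for other metalloproteases, and the median of all tested genes (dashed) is 0.02.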

How the data were processed

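Per the labels' protocols, total RNA of sorted cells was sequenced after depletion of ribosomal RNA. Per the submitters' processing notes, DESeq2 1.22.1, StringTie 1.3.3b, HISAT2 2.1.0, Trim Galore 0.5.0 and mm10 were used, in roles that are not stated. The authors deposited normalised counts, a signal scaled by 1 factor per library. When a library's values were divided by the smallest of them above 0, 100% came out whole (tolerance 0.01), and these recovered counts may derive from coverage. Libraries were compared for duplication (chi-square per degree of freedom 24.7 to 54.2 between pairs), and each counted once.

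The test of I/R against sham was limma 3.58.1 (R 4.3.3), which modelled log2(value + 1) of 13434 genes with a mean of at least 10, without covariates and with a variance trend over intensity. It was two-sided, with p-values adjusted over all 13434 genes by Benjamini-Hochberg and a threshold of 0.05. The added 1 shrinks fold changes of low genes, but does not make them cautious where libraries are at 0. Timp1 had 3.29 with 0.5 added, 2.66 with 1 and 1.36 with 5, beside 1.74 in DESeq2. edgeR 4.0.16 and DESeq2 1.42.0 on recovered counts were alternatives, and edgeR called 1 gene, DESeq2 42 of 16662. Methods were tested on simulated data. Coordinates and exon lengths come from GENCODE mouse release 21 (GRCm38), where 21886 of 22027 identifiers were found, 10 of 10 members among them. The gene version of Mmp14 differed between the deposited table and this release. Its exon length, and so its level per kb, may not match the gene model that was counted. Same-numbered libraries did not deviate together (correlations over genes -0.02, -0.21 and -0.001), so numbers were not treated as pairs.

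Members and lists were chosen with earlier results of these data known. Of each related list, genes called by limma, or else the 3 with the smallest unadjusted p, are named. A gene that this rule would name is not reported here. Mmp3, Mmp8, Mmp10, Lrp1, Adam17, Jun, Junb, Jund, Fos, Fosl1, Fosl2, Col1a1, Col1a2, Col3a1, Col5a1 and Col5a2 were named after their values were seen. The limma intervals rest on the spread between libraries, which includes counting error without separating it, and the floors rest on counts alone.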

Additional observations from a re-analysis of the deposited data

How the results depend on the processing

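Under 18 alternatives the 10 genes gave 178 log2 fold changes, of which 0 were called (smallest adjusted p = 0.277, for Mmp12 without sham library 1), 165 kept their sign and 13 turned it. Timp1 and Reck have no value with a minimum mean of 50. Leaving out 1 library each gave -0.043 to 0.94 for Mmp12, -0.37 to 0.82 for Mmp13, -0.14 to 0.16 for Mmp14 and -0.26 to 0.62 for Reck. On recovered counts Mmp13 and Mmp14 had -0.13 and -0.0095 in edgeR and -0.13 and -0.011 in DESeq2, and Reck had -0.034 with quantile normalisation. The cause was not tested.

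Over all genes limma called 4 higher and 0 lower. It called 0 to 20 higher and 0 to 2 lower with 1 library left out, where 20 and 2 came without sham library 1 and 0 and 0 without any other. It called 1 higher with a minimum mean of 50, and 0 higher without the trend, with replicate number as a block, or without the shallowest library of each group. edgeR called 1 higher, and DESeq2 35 higher and 7 lower. Of the related genes 0 were called by limma, 2 by DESeq2 and 3 without sham library 1 (Thbs1, Col1a1 and Col3a1), with a range of 0 to 3 over the left-out libraries. The replicate block left 0 of the 10 genes called, as without it, and libraries did not correlate best with their own number. The ratio of metalloproteases to TIMPs per kb was 0.873 in I/R and 1.19 in sham libraries with the length of the longest coding transcript, an alternative added after the data were seen.

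Low counts limit Timp1 (0 to 36 counts per library) and Reck (13 to 64 counts) most. The counts of Timp1 did not follow depth in the sham group. They were 0 in sham library 2 (15650152 recovered counts) and 10 in sham library 1 (6638130).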
